A study of Mus musculus with 12 samples.

Results

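Cohesin is a ring-shaped protein complex that encircles DNA, extrudes chromatin loops and holds sister chromatids together. The 8 genes described here encode the proteins that put the ring on chromatin, take it off, modify it and stop it: Nipbl and Mau2 form the loader, Wapl opens the ring, Pds5a and Pds5b are paralogous accessory subunits that act in both release and protection, Esco1 acetylates the Smc3 subunit, Hdac8 removes that acetyl group, and Ctcf is the zinc finger protein at which loop extrusion stalls. In neurons, which no longer divide, these proteins act mainly through loops and transcription. Loss of NIPBL or HDAC8 function is a cause of Cornelia de Lange syndrome. The genes were chosen by symbol, and all 8 were found among the 32494 genes of the deposited table.

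The transcripts were measured by RNA sequencing of the hypothalamus of 12 male mice with floxed Smc3 alleles, all treated with tamoxifen and sampled 5 weeks later; the labels give an age of 8 weeks without naming the step. The 7 mice without Camk2a-cre/ERT2, a transgene for a tamoxifen-activated recombinase, form the WT group. The 5 mice that carry it form the cKO group. Titles in both groups also hold the word control, which was not used. The Camk2a promoter drives the recombinase in forebrain excitatory neurons, so glia, vessels and other neurons of a dissected hypothalamus are not expected to recombine Smc3 in the cKO group. The study set out to learn what loss of Smc3 from adult neurons does.

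Depth, recovered from the deposited values, ran from 17.1 to 24.01 M reads, except that WT 1 had 68.7 M. Smc3, the floxed gene, went against the labels. Its lowest, median and highest values were 76.8, 83.0 and 85.7 CPM (reads scaled to the size of the library, as deposited) in WT. In the libraries labelled cKO it was at 144, 132, 116, 126 and 136 CPM in mice 8, 9, 12, 13 and 14, all above every WT value. Directions below therefore refer to the libraries labelled cKO and not to a shown loss of Smc3 transcript. Were the labels exchanged, every direction between the groups would turn. A value per gene need not show the loss of excised exons, and reads over those exons were not analysed here. Hypothalamic marker genes varied widely within both groups, with Oxt from 0.651 to 348 CPM in WT and from 0.280 to 231 CPM in cKO, and Nr5a1 was at 0 in at least 1 WT library. Agrp was under the level needed for testing. Of the 15 tested hypothalamic markers, 1 was higher and 0 lower by limma, with a median log2 fold change of 0.45. The 1 was Sim1, a transcription factor gene, at 10.9 to 18.6 CPM in WT and 15.4 to 27.1 CPM in cKO (log2 fold change 0.56, limma adjusted p-value 0.0206). The thalamus adjoins the hypothalamus. Markers of thalamus and habenula had a summed level of 733 to 1447 CPM in WT and 482 to 855 CPM in cKO. Of those 13 genes, 4 were lower by the main test and 0 higher, with none at 0 in any library. Neuron markers summed to 6154 to 6961 CPM in WT and 6907 to 7541 CPM in cKO, with 2 of 10 higher and 0 lower, and those of oligodendrocyte precursors to 168 to 189 CPM and 194 to 227 CPM, with 3 of 4 higher and 0 lower. None of these 14 was at 0 in any library. Log2 fold changes of the neuron markers lay on both sides of 0. Over all tested genes, limma called 14.1% (6.54% higher, 7.6% lower). Beside that share, 1 of 15 and 2 of 10 are counts about single genes and not about a cell type. No tested marker of astrocytes, oligodendrocytes, microglia, vessels, ependyma, choroid plexus, or cortex and striatum was called. The part of any of these marker differences in the results below was not tested. The thalamic and habenular marker score, alone or with the hypothalamic score, was fitted as a covariate. Its mean was 5.35 in WT and 4.86 in cKO. Because the thalamic score differed with the group, such a fit cannot tell the score from the group. Libraries of tissue pieces cannot tell fewer cells of a type from less RNA per cell.

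Differences were tested with limma on log2(CPM + 1) over the 15359 genes whose mean reached 1 CPM, with p-values adjusted by Benjamini-Hochberg over all of them and a threshold of 0.05. All 8 genes passed the minimum. Of the 8, 2 fell in the libraries labelled cKO, Mau2 and Pds5b, and 0 rose. At an unadjusted limma p under 0.05 the count was again 2 lower and 0 higher, where 31.1% of all tested genes passed (16.1% higher, 15% lower). Counts from edgeR's quasi-likelihood test and DESeq2, each on recovered reads, were 2 lower and 0 higher as well. With the thalamic and habenular marker score as a covariate, limma called 0 of the 8 genes and 657 of all tested genes. When single mice were left out, it called 1 to 2 of the 8 and 1158 to 2302 of all tested genes. Over all tested genes, limma called 14.1% in either direction, 6.54% higher and 7.6% lower. That balance turned with the scaling: 1004 genes were higher and 1168 lower as deposited, 1377 and 1054 after centring libraries on their medians, and 1318 and 862 after the correction for GC content and length. The shares were 13.7% (5.81% higher, 7.85% lower) for edgeR and 17.9% (7.96% higher, 9.93% lower) for DESeq2. Against that share, 2 of 8 is a count about these genes singly and not about the set. The median absolute log2 fold change was 0.0597 over the 8 genes and 0.1001 over all tested genes. Their median spread within groups, as the SD of log2 values left by the fit, was 0.0878 against 0.1203 for all tested genes.

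**Figure D1:**
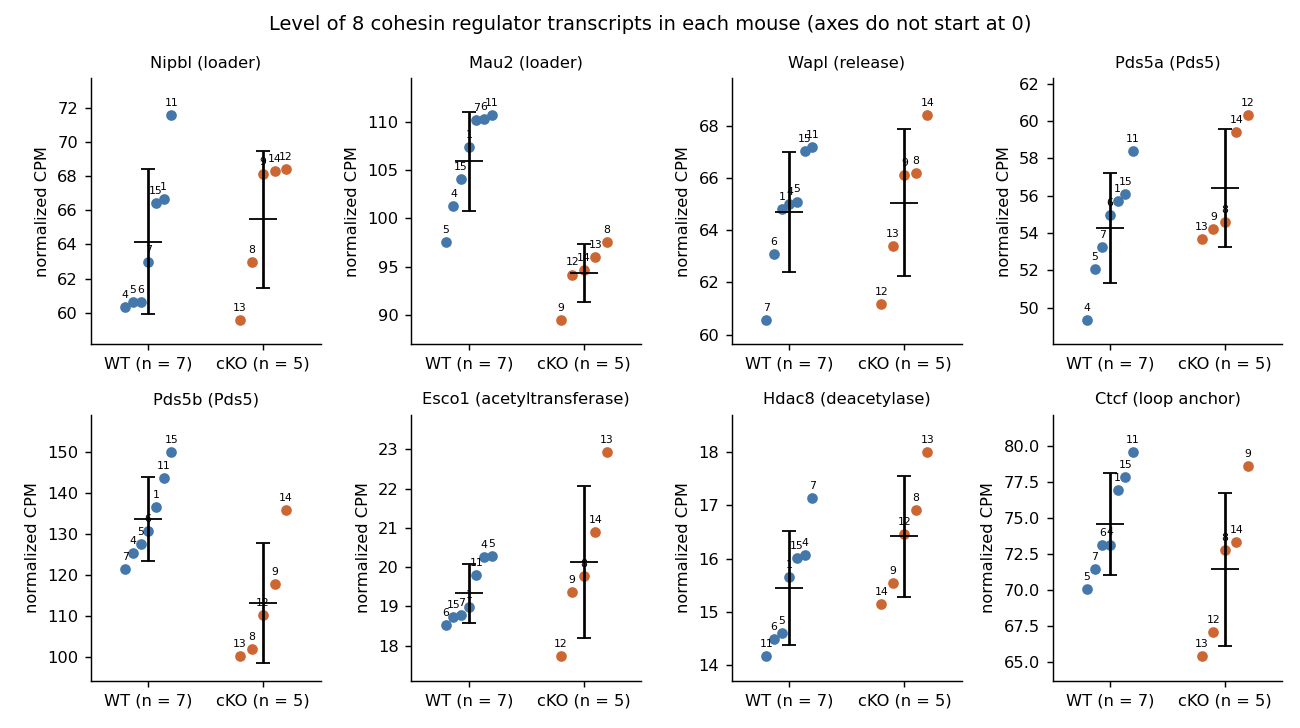
Normalized CPM (vertical axis, own scale in each panel, not starting at 0) of the 8 genes in every mouse, numbered, with group mean and SD as black bars. The cKO points lie below the WT points for Mau2, with cKO 8 and WT 5 nearly level. For Pds5b 4 of 5 cKO points do so, and the groups overlap in the other 6 panels.

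The loader was measured through both of its genes. Nipbl, the large subunit that also drives the ring's ATPase during loop extrusion, was at 60.3, 63.0 and 71.6 CPM (lowest, median, highest) in WT. In the libraries labelled cKO it was at 63.0, 68.1, 68.4, 59.6 and 68.3 CPM in mice 8, 9, 12, 13 and 14. The groups overlapped, with WT 11 the highest mouse of all and cKO 13 the lowest. The means were 64.2 ± 4.23 CPM (SD, n = 7) and 65.5 ± 4.02 CPM (SD, n = 5), and the limma log2 fold change was 0.03 with a 95% interval of -0.08 to 0.14 (adjusted p-value 0.747).

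Mau2, the smaller loader subunit that binds the N-terminal end of Nipbl, fell. It was at 97.52, 107 and 111 CPM (lowest, median, highest) in WT, and at 97.51, 89.5, 94.2, 96.0 and 94.7 CPM in cKO mice 8, 9, 12, 13 and 14. Every cKO value was under every WT value, but only by 0.00755 CPM, the gap between WT 5 and cKO 8. That gap is less than 1 read, which stands for 0.0465 CPM in WT 5 and 0.0420 CPM in cKO 8. Ranges without overlap were found for 6.73% of all tested genes, 3.52% higher and 3.2% lower. The means were 106 ± 5.12 CPM (SD, n = 7) and 94.4 ± 3.01 CPM (SD, n = 5), so that cKO stood at 0.891 of WT. By limma, the change on the log2 scale was -0.16 (SE 0.04, adjusted p-value 0.0182), and all 5 cKO mice were under the WT median. The call held in each of the 12 fits that left out 1 mouse, with limma adjusted p-values of at most 0.0482. It was lost when each library was corrected for the GC content and length of transcripts, which moved the log2 fold change to -0.10 (limma adjusted p-value 0.0918). The longest annotated Mau2 transcript has a GC content of 51.9%, the highest of the 8 genes, where the other 7 lie between 39.3% and 46.4%. With the thalamic and habenular marker score as a covariate the log2 fold change stayed at -0.16 with an SE of 0.06 in place of 0.04, and the limma adjusted p-value was 0.109.

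Within single libraries, where scaling cancels, the ratio of Nipbl to Mau2 CPM was 0.606 ± 0.0357 (SD, n = 7) in WT and 0.695 ± 0.0591 (SD, n = 5) in cKO. Its lowest, median and highest WT values were 0.550, 0.621 and 0.647, and the cKO values were 0.646, 0.761, 0.727, 0.621 and 0.721 in mice 8, 9, 12, 13 and 14. Mice 8 and 13 lay inside the WT range and the other 3 above it.

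**Figure D2:**
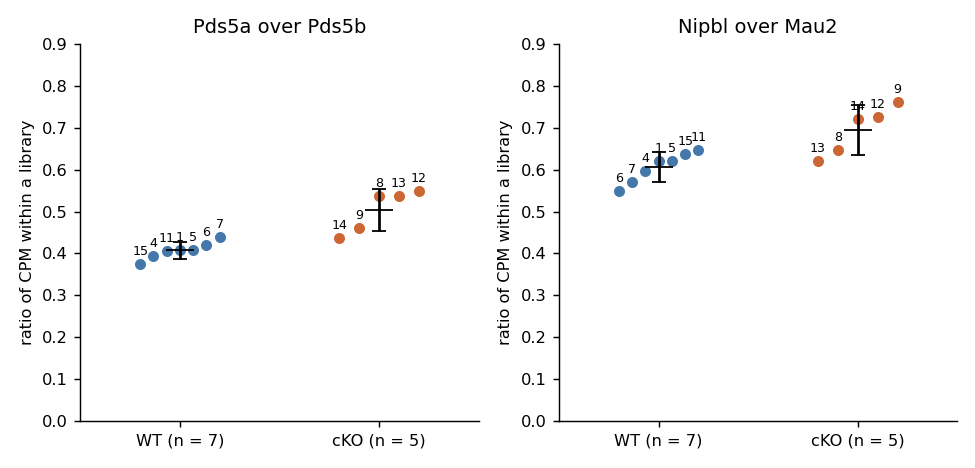
Ratio of Pds5a to Pds5b CPM (left) and of Nipbl to Mau2 CPM (right) within each library, with the mouse number above each point and group mean and SD as black bars. In both panels the cKO mean is higher and the lowest cKO points, mouse 14 on the left and mouse 13 on the right, lie within the WT range.

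Release and its Pds5 partners were next. Wapl, which opens the interface between Smc3 and the kleisin subunit, was at 60.6, 65.0 and 67.2 CPM (lowest, median, highest) in WT. The cKO values were 66.2, 66.1, 61.2, 63.4 and 68.4 CPM in mice 8, 9, 12, 13 and 14, so that the groups covered nearly the same range. The limma log2 fold change was 0.01 with a 95% interval of -0.07 to 0.09 (adjusted p-value 0.918), the smallest difference among the 8 genes. Its sign was negative by DESeq2 and in the fits without cKO 14 and without WT 7, so no direction is given for Wapl.

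Pds5b, the Pds5 paralog with AT-hook DNA-binding motifs, fell, and had the largest change of the 8 genes. It was at 121, 131 and 150 CPM (lowest, median, highest) in WT. In the libraries labelled cKO it was at 102, 118, 110, 100 and 136 CPM in mice 8, 9, 12, 13 and 14. Mouse 14 lay within the WT range and the other 4 under it. The means were 134 ± 10.4 CPM (SD, n = 7) and 113 ± 14.5 CPM (SD, n = 5), so that cKO stood at 0.846 of WT. By limma, the change on the log2 scale was -0.24 (SE 0.07, adjusted p-value 0.0439).

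The Pds5b call stood close to the threshold. It was lost in 9 of the 12 fits that left out 1 mouse. The limma adjusted p-value was 0.0826 without WT 1, 0.0513 without WT 4, 0.0631 without WT 6, 0.0792 without WT 11 and 0.0728 without WT 15. Among the cKO mice it was 0.0949 without mouse 8, 0.0633 without mouse 9, 0.0764 without mouse 12 and 0.103 without mouse 13. Without mouse 14, the highest cKO value, the log2 fold change was -0.31 (limma adjusted p-value 0.0158). Over these 12 fits the log2 fold change ran from -0.31 to -0.20. With the thalamic and habenular score as a covariate it was -0.24 with an SE of 0.10 (limma adjusted p-value 0.182).

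Pds5a, the other paralog, was at 49.3, 55.0 and 58.4 CPM (lowest, median, highest) in WT and at 54.6, 54.2, 60.3, 53.7 and 59.4 CPM in cKO mice 8, 9, 12, 13 and 14. The groups overlapped, with WT 4 the lowest mouse and cKO 12 the highest. The limma log2 fold change was 0.06 with a 95% interval of -0.05 to 0.16 (adjusted p-value 0.455). The paralogs were counted as separate genes, and whether reads common to both were split between them was not tested.

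The ratio of Pds5a to Pds5b within a library was 0.407 ± 0.0202 (SD, n = 7) in WT and 0.504 ± 0.0508 (SD, n = 5) in cKO. Its lowest, median and highest WT values were 0.374, 0.408 and 0.439. The cKO values were 0.536, 0.461, 0.548, 0.536 and 0.437 in mice 8, 9, 12, 13 and 14. Mouse 14 lay just inside the WT range, below WT 7, and the other 4 lay above it.

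The stretches upstream of Mau2 and Pds5b are shown because these genes fell, and that of Pds5a because it is the paralog that did not pass the test. They are from RefSeq (GRCm38.p6), 5′ to 3′ on the gene's strand, and stop before the first annotated transcribed base in RefSeq and GENCODE M21. The Mau2 stretch is chr8:70042735-70042984 (minus strand), the Pds5a stretch chr5:65698274-65698486 (minus strand) and the Pds5b stretch chr5:150673577-150673738 (plus strand). Capitals mark matches to AGNGGGC, a core of the CTCF motif, searched on both strands.
Mau2: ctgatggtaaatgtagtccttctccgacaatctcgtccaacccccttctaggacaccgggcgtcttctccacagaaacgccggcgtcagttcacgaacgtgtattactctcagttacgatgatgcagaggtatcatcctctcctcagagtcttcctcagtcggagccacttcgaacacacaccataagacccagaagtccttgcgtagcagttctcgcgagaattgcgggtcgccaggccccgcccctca
Pds5a: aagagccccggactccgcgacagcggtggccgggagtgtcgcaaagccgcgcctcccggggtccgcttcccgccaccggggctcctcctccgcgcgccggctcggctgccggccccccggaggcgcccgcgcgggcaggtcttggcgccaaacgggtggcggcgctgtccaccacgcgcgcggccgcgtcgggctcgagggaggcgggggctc
Pds5b: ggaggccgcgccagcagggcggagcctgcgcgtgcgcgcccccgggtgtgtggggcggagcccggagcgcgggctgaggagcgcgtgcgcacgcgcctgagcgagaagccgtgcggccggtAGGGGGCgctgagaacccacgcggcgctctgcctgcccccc
GC content was 54.8% in the Mau2 stretch, 80.3% in that of Pds5a and 80.2% in that of Pds5b, so the paralogs resemble each other in base composition and Mau2 does not. The CTCF core was matched once, upstream of Pds5b. Over full windows of 300 bases (250 before and 50 after each start), 6 of the 8 genes had an entry, in 7 windows, and 1 window, that of Pds5b, held the core. The core occurs in 25.8% of the 32851 promoter windows and in 35.2% of those of tested genes. The match is a description of letters, and binding was not measured here. CCATNTT, a core of the motif of YY1, another loop-associated zinc finger protein, was matched on either strand in 2 of the 7 windows, Pds5b and Ctcf, and in 16.1% of all windows.

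The acetylation pair sets the modification of the Smc3 protein that protects the ring from release. Esco1, the acetyltransferase that acts outside S phase as well, was at 18.5, 19.0 and 20.3 CPM (lowest, median, highest) in WT. The cKO values were 19.8, 19.4, 17.7, 22.9 and 20.9 CPM in mice 8, 9, 12, 13 and 14. The cKO mice spread to both sides of the WT range, with mouse 12 under it and mice 13 and 14 above it. The SD was 0.752 CPM (n = 7) in WT and 1.93 CPM (n = 5) in cKO. The limma log2 fold change was 0.05 with a 95% interval of -0.07 to 0.18 (adjusted p-value 0.583). Within groups, the deviations of Esco1 went with those of the thalamic and habenular score (r of 0.642 over 12 libraries, as a description), where the other 7 genes had an r from -0.232 to 0.284, with Mau2 at 0.0472 and Pds5b at 0.0117. With that score as a covariate the Esco1 log2 fold change was 0.15 (limma adjusted p-value 0.206), and with both marker scores 0.16 (limma adjusted p-value 0.164). It was 0.0057 without cKO 13 (limma adjusted p-value 0.958) and 0.09 without cKO 12 (limma adjusted p-value 0.265), so its size rests on single cKO mice.

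Hdac8, the X-linked deacetylase that recycles Smc3, was at 14.2, 15.7 and 17.1 CPM (lowest, median, highest) in WT and at 16.9, 15.5, 16.5, 17.99 and 15.2 CPM in cKO mice 8, 9, 12, 13 and 14. The groups overlapped, with cKO 13 above the WT range. The limma log2 fold change was 0.08 with a 95% interval of -0.05 to 0.21 (adjusted p-value 0.373). After the correction for GC content and length it was 0.0098 (limma adjusted p-value 0.931). Hdac8 had the fewest reads of the 8 genes, from 256 in cKO 14 to 1077 in WT 1. The ratio of Esco1 to Hdac8 was 1.26 ± 0.1101 (SD, n = 7) in WT and 1.23 ± 0.114 (SD, n = 5) in cKO.

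Ctcf, which anchors loops where it meets the extruding ring, was at 70.1, 73.2 and 79.6 CPM (lowest, median, highest) in WT. The cKO values were 72.8, 78.6, 67.1, 65.4 and 73.3 CPM in mice 8, 9, 12, 13 and 14. Mice 12 and 13 lay under the WT range and the other 3 inside it. The means were 74.6 ± 3.55 CPM (SD, n = 7) and 71.4 ± 5.31 CPM (SD, n = 5), and the limma log2 fold change was -0.06 with a 95% interval of -0.17 to 0.04 (adjusted p-value 0.412).

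**Figure D3:**
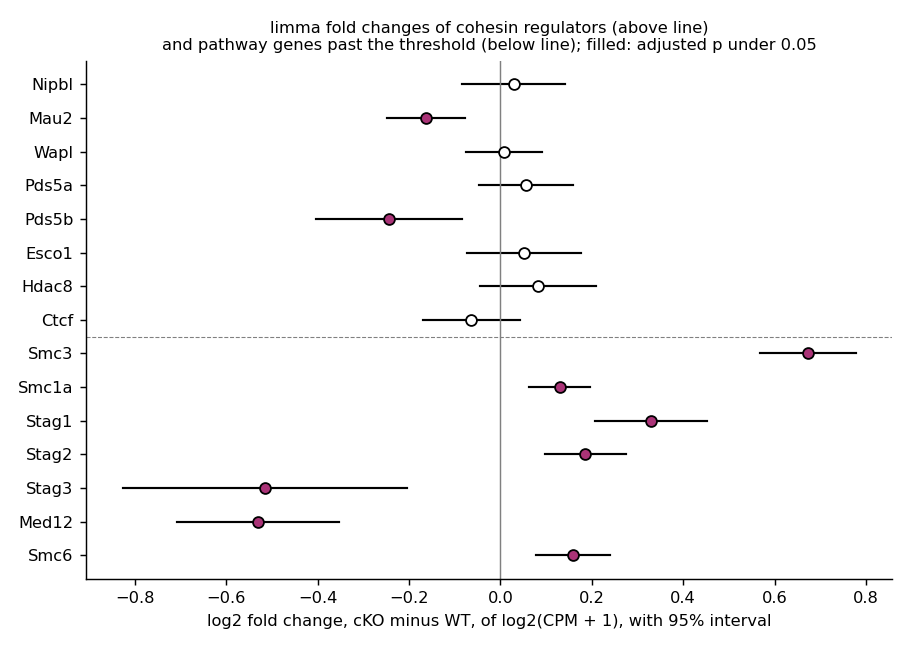
Log2 fold change of log2(CPM + 1), cKO minus WT (horizontal axis), by limma, with its 95% interval as a line; filled points have an adjusted p under 0.05. Above the dashed line, Mau2 and Pds5b lie left of 0 and the other 6 genes have intervals that include 0; below it are the pathway genes past the threshold, with Smc3 farthest to the right.

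In the authors' deposited table, whose own test is not named, the log2 fold change was -0.17 for Mau2 and -0.24 for Pds5b. The FDR was 0.0557 for Mau2 and 0.0634 for Pds5b, neither under 0.05, where that table has 4.94% of its 32494 genes, 1.63% higher and 3.3% lower. For the other 6 genes the authors' deposited table has FDR values from 0.752 to 1.

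Levels were compared between genes as CPM per kilobase of the longest GENCODE M21 transcript. In WT, Ctcf was at 19.7 ± 0.938 and Mau2 at 19.7 ± 0.953 CPM per kb (SD, n = 7), with Pds5b next at 18.01 ± 1.40 CPM per kb, and the ranges of these 3 genes overlapped. Wapl stood alone at 10.2 ± 0.362 CPM per kb, below all WT values of the first 3 and above all of the rest. Hdac8 (6.82 ± 0.471), Nipbl (6.81 ± 0.449) and Pds5a (6.07 ± 0.333 CPM per kb) had overlapping ranges. Esco1 was lowest at 4.23 ± 0.165 CPM per kb, under all values of the others. By this measure the Mau2 transcript was about as abundant as that of Ctcf, and the Nipbl transcript was well below both. In the libraries labelled cKO, Ctcf led with 18.9 ± 1.40 CPM per kb (SD, n = 5), ahead of Mau2 at 17.6 ± 0.560 and Pds5b at 15.2 ± 1.96 CPM per kb.

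The order depends on the transcript model. Per kilobase of all annotated exons, Ctcf (15.4 CPM per kb in WT), Pds5b (13.6), Mau2 (11.6) and Wapl (9.77) were again the top 4 genes. Mau2 was then no longer level with Ctcf, at 10.7 to 12.1 against 14.4 to 16.4 CPM per kb in WT. Pds5a then came last at 2.81 CPM per kb, since its annotated exons sum to 19.3 kb against 8.93 kb for its longest transcript. Which isoforms the counted reads came from was not tested.

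How the genes vary from mouse to mouse was described by subtracting each group's mean of log2(CPM + 1) and correlating the remainders over the 12 libraries, which share their depth and dissection between genes. Pairs of all tested genes were not counted in this way, so whether the counts are particular to these genes was not tested. Of the 28 pairs, 16 were positively correlated, and 7 had an r above 0.5. These 7 were all among Nipbl, Pds5a, Pds5b, Wapl and Ctcf. The highest was Nipbl with Pds5a (r 0.777, Spearman's rho 0.86, and r 0.688 without the 2 mice farthest from the Nipbl median). Nipbl with Pds5b had an r of 0.733 (rho 0.706, and 0.689 without 2 mice) and Wapl with Ctcf 0.697 (rho 0.678, and 0.659 without 2 mice).

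Mau2 showed little co-variation with its loader partner, with an r of 0.153 to Nipbl (rho 0.14, and 0.0388 without 2 mice). The same held for Pds5b, the other gene that fell (r -0.0797, rho -0.119, and -0.176 without 2 mice). Hdac8 ran opposite to Pds5b (r -0.618, rho -0.65, and -0.786 without 2 mice). The paralogs Pds5a and Pds5b went together within groups (r 0.641, rho 0.671, and 0.625 without 2 mice), although Pds5b passed the test between groups and Pds5a did not. WT 11 held the highest WT value in 5 of the 8 genes, and cKO 13 the lowest cKO value in 4.

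**Figure D4:**
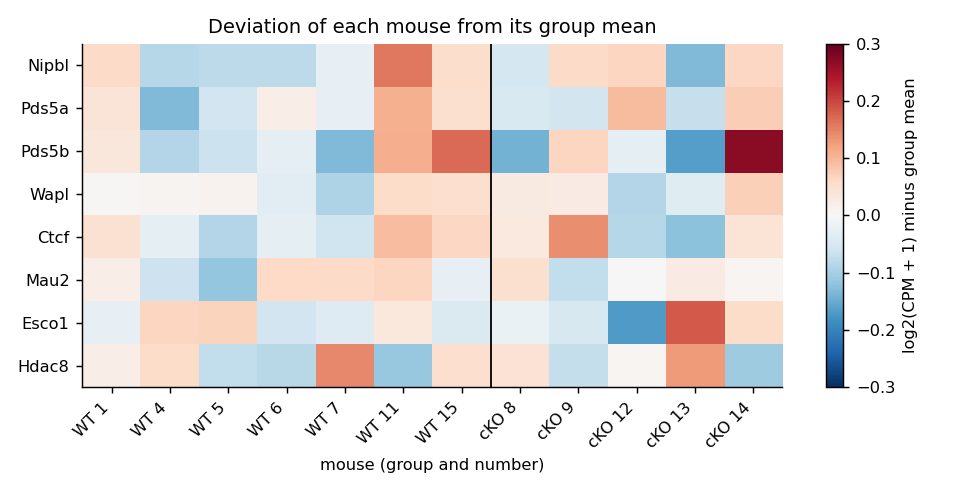
Deviation of log2(CPM + 1) from the group mean (colour, red above and blue below) for the 8 genes (rows) in each mouse (columns), with a line between WT and cKO. Nipbl, Pds5a, Pds5b, Wapl and Ctcf are all above the group mean in WT 1, WT 11, WT 15 and cKO 14, and the largest deviation is that of Pds5b in cKO 14, at 0.272.

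Among all tested genes, those most like each of the 8 by the same measure, over 12 libraries, were as follows. For Nipbl they were Mdc1 (r 0.943, rho 0.818), Nsd1 (r 0.94, rho 0.923) and Eif4g1 (r 0.939, rho 0.958). For Mau2 they were Wdr24 (r 0.952, rho 0.93), Slc26a11 (r 0.936, rho 0.888) and Vmn2r1 (r 0.915, rho 0.944). For Wapl they included Ube2d3 (r 0.922) and Nlgn1 (r 0.903). Those for Pds5a included Fnbp1l (r 0.931) and Smpdl3b (r 0.901). Pds5b was most like Herc1 (r 0.931), Mbd5 (r 0.922) and Ankrd17 (r 0.92). Esco1 was closest to Trappc2 (r 0.981), Esf1 (r 0.942) and Impa1 (r 0.93). Hdac8 had the weakest neighbours, Smim11 (r 0.854), Hspb6 (r 0.843) and Zfp566 (r 0.824). Ctcf was closest to B230303A05Rik (r 0.946), Dock11 (r 0.932) and Rprd2 (r 0.928). None of the 8 genes was among the closest 3 of another, and such high values arise when the best of 15359 genes is picked.

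The rest of the pathway was read from lists of other genes. Over all tested genes, limma called 6.54% higher and 7.6% lower. Of 8 tested ring subunits, 4 were higher and 1 lower by limma, with a median log2 fold change of 0.16 against 0.01 for all tested genes. Beside Smc3 these were Smc1a, its partner in the ring (0.13, SE 0.03, adjusted p-value 0.0178), and the alternative subunits Stag1 (0.33, SE 0.06, adjusted p-value 0.00478) and Stag2 (0.19, SE 0.04, adjusted p-value 0.013). Stag3, a meiotic subunit at 1.89 CPM in WT and 1.06 CPM in cKO, was lower (-0.52, SE 0.14, limma adjusted p-value 0.032). Its call was lost without WT 1, WT 6, WT 7 or WT 11 (limma adjusted p-values 0.062, 0.0537, 0.0559 and 0.0581) and without cKO 8, 9, 12 or 14 (0.0508, 0.073, 0.0544 and 0.0681). It was also lost over all genes above 0 (limma adjusted p-value 0.0666) and under quantile normalization (0.0655), and the size of the Stag3 change was -0.88 with a pseudocount of 0.1, -0.83 by edgeR and -0.84 by DESeq2. With the thalamic and habenular score as a covariate 2 of the 8 ring subunits were past the threshold, Smc3 and Stag1, both higher; the Smc1a and Stag2 calls were lost (limma adjusted p-value 0.131 for each). In the authors' deposited table the FDR of Smc1a was 0.113. Rad21, the kleisin subunit, had an unadjusted p under 0.05 (0.10, limma adjusted p-value 0.0802).

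Of 8 genes for cofactors of the loader and of transcription, Med12 alone was past the limma threshold. Med12 encodes a subunit of the Mediator kinase module. It was at 46.2, 55.4 and 62.8 CPM (lowest, median, highest) in WT and at 37.5, 41.3, 42.4, 34.9 and 35.2 CPM in cKO mice 8, 9, 12, 13 and 14, without overlap. Its log2 fold change was -0.53 (SE 0.08, limma adjusted p-value 0.00334). Aff4 (0.16, limma adjusted p-value 0.0797) and Chd7 (-0.23, limma adjusted p-value 0.115) had an unadjusted p under 0.05. Of 5 condensin, Smc5/6 and related genes, Smc6 was higher (0.16, SE 0.04, limma adjusted p-value 0.0173), and the other 4 genes did not pass by limma. Smc5 had an unadjusted p under 0.05 (-0.11, limma adjusted p-value 0.101), and DESeq2 called 1 gene of the list higher and 1 lower. The Smc6 call was lost once the thalamic and habenular score was a covariate (0.14, limma adjusted p-value 0.13). In the authors' deposited table the FDR of Smc6 was 0.0687, not under 0.05.

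Of 7 tested partners of CTCF at loop anchors, 0 were past the limma threshold, and 1, Yy1, had an unadjusted p under 0.05 (log2 fold change 0.07, adjusted p-value 0.15). Of the class I deacetylases related to Hdac8, 0 of 3 passed by limma, and Hdac2 had an unadjusted p under 0.05 (log2 fold change 0.11, adjusted p-value 0.0906). Neither edgeR's quasi-likelihood test nor DESeq2 called any gene of these lists. Of 10 genes of cohesion in dividing cells, 6 were under the CPM minimum. Esco2, the S-phase acetyltransferase, had 0 to 5 reads per library and Cdca5, which encodes sororin, 0 to 6. Of the 4 tested genes of that list 0 passed by limma, 0 had an unadjusted p under 0.05, and edgeR and DESeq2 called 0. Ctcfl, the germline paralog of Ctcf, had 0 to 2 reads per library, which is under the floor of 3 reads in every library.

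**Figure D5:**
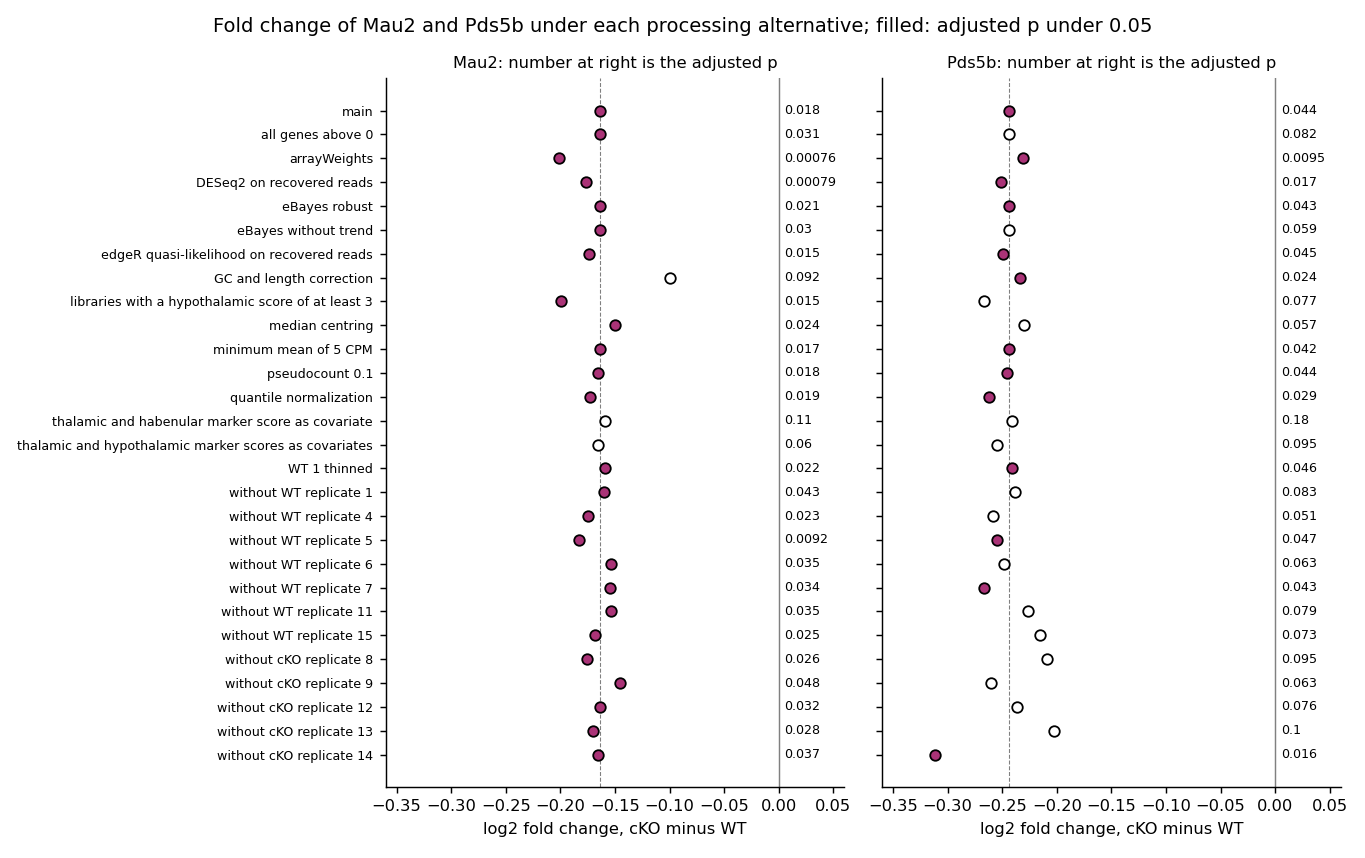
Log2 fold change, cKO minus WT (horizontal axis), of Mau2 (left) and Pds5b (right) under each processing alternative (rows), with the adjusted p printed at the right and filled points under 0.05. All points of both genes lie left of 0; Mau2 moved farthest after the GC and length correction, to -0.10, and Pds5b is open in 9 of the 12 fits without a mouse.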

How the data were processed

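Normalized CPM for 32494 genes in 12 libraries were deposited, beside the authors' own comparison with log2 fold changes, log2 mean CPM, p-values and FDR values. Submitters' processing notes name bcl2fastq, FastQC 0.11.9, STAR 2.7.9a, SAMtools, Subread and featureCounts, in no stated order. Genome build, annotation and strand setting are not given in the sources used here, so an antisense or overlapping gene could add reads. All columns were matched to samples by title. Every deposited CPM value was a whole multiple (within 0.01 reads) of its library's step (100% of values), which gave recovered reads; 3 reads correspond to 0.0436 to 0.178 CPM, and this covers counting error only. Over 31 pairs within groups, chi-square per degree of freedom was 3.04 to 26.3 counting genes that had 20 or more reads in both libraries together, so no pair matched within sampling noise.

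CPM is not a count, so limma 3.58.1 (R 4.3.3; lmFit, eBayes with trend) was run on log2(CPM + 1), with a pseudocount of 1 and no covariate, over genes whose mean reached 1 CPM; fold changes of low genes are understated. Its 95% intervals are per gene and unadjusted. The labels do not name litters or batches, and each library is taken as 1 mouse from its title. The members and gene lists were chosen with earlier results of these data known, and the promoter motifs after the values were seen. Genes named are the 8 members, Smc3, list genes past the threshold, and the 3 most correlated genes of each member, of which 1 for Wapl and 1 for Pds5a are not reported here; Sim1, Oxt, Nr5a1, Agrp, Rad21, Aff4, Chd7, Smc5, Yy1, Hdac2, Esco2, Cdca5 and Ctcfl were added after their values were seen. Each marker score averages log2(CPM + 1) of its listed, tested genes, 13 for thalamus and habenula and 15 of 16 for hypothalamus. Fits were tested on simulated counts, and no value from those runs is reported here. Alternatives were quantile normalization, median centring, a pseudocount of 0.1, all genes above 0, a minimum of 5 CPM, eBayes without trend or robust, arrayWeights, edgeR 4.0.16 and DESeq2 1.42.0 on recovered reads, the marker scores as covariates, a spline correction (4 degrees of freedom each) for GC content and length from GENCODE M21 (94.5% of tested genes matched), WT 1 thinned to 21.7 M reads, and leaving out each mouse.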

Additional observations from a re-analysis of the deposited data

Results flagged for a closer look

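Depth was far higher in WT 1, at 68.7 M reads, than in the next WT library, at 24.01 M. This was the 1 case among 40 sets of group values in which a single library lay that far out, and chance alone gives about 1 in 20. Thinning that library to 21.7 M reads left Mau2 at a log2 fold change of -0.16 (limma adjusted p-value 0.0216) and Pds5b at -0.24 (limma adjusted p-value 0.0458).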

How the results depend on the processing

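No paired analysis was possible because WT and cKO mice carry different numbers. An alternative chosen after seeing the data kept the 9 libraries with a hypothalamic marker score of at least 3, which leaves out WT 4, WT 5 and cKO 12.

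Mau2 lost the threshold with the GC and length correction (-0.10), the thalamic score (-0.16) and both marker scores (-0.17, limma adjusted p-value 0.0596). It was -0.18 to -0.15 when a mouse was left out. Pds5b lost it over all genes above 0 (-0.24, limma adjusted p-value 0.0824), without trend (-0.24, 0.0587), after median centring (-0.23, 0.0568), with the thalamic score (-0.24), with both scores (-0.25, 0.0946) and in the 9 libraries (-0.27, 0.0768). It was -0.31 to -0.20 when a mouse was left out. Wapl was -0.0023 by DESeq2 and ran from -0.011 to 0.029 as single mice were omitted. In the 9 libraries Nipbl was -0.020 and Pds5a -0.0061. As single mice were omitted, Nipbl ran from 0.013 (without cKO 12) to 0.062 (without cKO 13) and Pds5a from 0.032 (without cKO 12) to 0.073 (without WT 11). Esco1, Hdac8 and Ctcf kept their direction, and stayed outside the threshold, in every alternative, but not their size: Esco1 ran from 0.0057 to 0.16, Hdac8 from 0.0098 to 0.11 and Ctcf from -0.099 (without cKO 9) to -0.033 (without cKO 13).

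Members past the threshold numbered 1 over all genes above 0, without trend, after median centring, after the GC and length correction and in the 9 libraries, 0 with the thalamic score and 0 with both. Leaving out single mice gave 1 to 2. All genes past it numbered 2172, against 5126 with arrayWeights, 657 with the thalamic score, with 1158 (without WT 1) to 2302 when single mice were omitted. Ring genes numbered 2 with the thalamic score, 2 with both scores, 3 in the 9 libraries (Smc1a at a limma adjusted p-value of 0.0577), with 4 to 6 when single mice were omitted. Loader cofactors numbered 3 with arrayWeights, 2 after correction for GC and length, and 1 to 2 without single mice (2 without WT 15 or cKO 13). Anchor partners numbered 2 with arrayWeights and 2 after the GC and length correction. Class I deacetylases numbered 2 with arrayWeights, with 0 to 1 when single mice were omitted (1 without cKO 12). Condensin and Smc5/6 genes numbered 2 with arrayWeights, 2 by DESeq2, 0 with the thalamic score and 0 with both scores. Why these values moved was not tested, beyond the smaller number of mice or the larger number of genes that some alternatives hold by construction. Of 620 values under an alternative, 543 kept their direction and side of the threshold, or a count within 1.5 times.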
